A study of Mus musculus with 7 samples.

Results

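The antioxidant, glutathione and thioredoxin genes described here are 44 named mouse genes whose products remove superoxide and peroxides, keep protein thiols reduced, or regulate that defence, with 4 subunits of the superoxide-producing NADPH oxidase of phagocytes. Each gene was represented by the array probe set that the platform annotation assigns to it alone. Where several qualified, the one with the highest mean log2(intensity + 1) over all arrays was used. This gave values for 40 of the 44 genes, out of 22180 genes with a probe set of their own. Prdx1, Prdx5, Prdx6 and G6pdx had no such probe set. For Prdx1, 3 probe sets name it together with other genes, and they are not used here.

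The study profiled hematopoietic stem cells, from which blood is renewed, and asked which transcripts depend on Ahr, the gene of the aryl hydrocarbon receptor, a ligand-activated transcription factor. There were 3 arrays of Ahr knockout mice (Ahr-KO) and 4 of wild-type mice (WT), all on the C57BL/6J background and aged 8 weeks. Marrow was depleted of cells bearing lineage markers, and stem cells were selected by SLAM receptors. The sources used here do not state the targeting construct, the deleted exons, or whether each array stands for 1 mouse or a pool, so the spread behind each p-value is that of the arrays and may be technical.

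Stem cells in the marrow are kept largely quiescent, and their redox state is known to bear on that quiescence. Superoxide dismutases turn superoxide into hydrogen peroxide. Catalase, glutathione peroxidases and peroxiredoxins then reduce the peroxide, with electrons that come from NADPH through glutathione or thioredoxin. The transcription factor NRF2, encoded by Nfe2l2, drives many of these genes through antioxidant response elements, and KEAP1 holds it back. Nqo1 is a textbook target of both NRF2 and the aryl hydrocarbon receptor.

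Values are deposited intensities on a linear scale, with differences given as Ahr-KO minus WT in log2(intensity + 1). Median intensity ran from 16.9 to 20.3 on the Ahr-KO arrays and from 16.95 to 22.1 on the WT arrays. As a background mark, each array's 95th percentile over 1108 olfactory receptor probe sets was used, which lay between 33.8 and 42.8. WT replicate 2 had the fewest tested probe sets above its mark (30.7%) and correlated least with the rest (mean correlation 0.646), and WT replicate 4 had the most above it (44.9%). Ahr itself stood at 34.1, 137 and 26.4 in Ahr-KO cells, against 31.3, 57.9, 14.9 and 20.5 in WT cells. Its difference was 0.84 ± 0.73 (SE; limma adjusted p = 0.963), so the knockout label is not checked by this probe set, whose position relative to the deletion is not given. Of 10 measured stem cell markers, Kit, Gata2, Hlf, Meis1 and Mllt3 exceeded the mark on all 7 arrays, and Slamf1 on 4. Slamf1, the CD150 receptor gene, stood at 57.4, 78.0 and 236 in Ahr-KO cells, against 4.56, 23.3, 7.81 and 73.3 in WT cells. The groups overlapped through WT replicate 4, and the difference was 2.58 ± 0.97 (SE; limma unadjusted p = 0.0288 and adjusted p = 0.963). Slamf1 was the only 1 of the 10 at a limma unadjusted p under 0.05, beside 4.02% of all genes. Most stem cell markers went the other way, with 7 of the 10 lower in Ahr-KO, 3 higher and a median difference of -0.53. All 14 granulocyte and monocyte markers were measured, and 6 of them exceeded the mark on all 7 arrays, among them Mpo, Elane and Lyz2.

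None of the 40 measured antioxidant genes differed between Ahr-KO and WT at a limma p adjusted over all 25335 probe sets tested, and the same call was made for 0% of all genes. Adjusted p-values for the 40 genes ran from 0.963 to 1.0. At an unadjusted limma p under 0.05 there was 1 gene, Sod2, or 2.5% of the 40, beside 4.02% of all genes. The ranges of the genotypes were separate, with every Ahr-KO value on one side of every WT value, for 3 genes, or 7.5%, beside 5.78% of all genes. Those were Prdx2 and Glrx3, higher in Ahr-KO, as 2.62% of all genes were, and Txnip, lower in Ahr-KO, as 3.15% were.

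Values were higher in Ahr-KO for 25 of the 40 genes and lower for 15, and 48.4% of all genes were higher. The median difference was 0.14, beside -0.03 over all genes. This lean was not kept in every set of arrays. Without Ahr-KO replicate 2 the count was 19 of 40 with a median of -0.11, beside 46.4% and -0.08 over all genes. Without WT replicate 3 it was 20 of 40 with a median of -0.01, beside 48.1% and -0.04. With any other single array left out, the count lay between 22 and 26 of 40. The pooled within-genotype SD of the array medians of these genes was 0.62, larger than the difference between the groups.

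Genes above the background mark on all arrays had a median SE of 0.54 for the difference, beside 1.04 for the other measured genes. There were exceptions on both sides, such as Gsr at 1.07 among the former and Sesn2 at 0.62 among the latter. Of the 40 genes, 15 exceeded the background mark on all 7 arrays, 22 on some arrays and 3 on none, those 3 being Sod3, Slc7a11 and Sesn2. The share above it on all arrays was 37.5%, beside 13.7% of all genes. The 15 bright genes had a median residual SD of 0.61 log2 units, beside 0.66 for all genes that exceeded the mark on every array. Their standard errors for a difference ran from 0.41 to 1.07, and over the 40 genes they reached 1.84. For the 3 genes nowhere above the mark, the values cannot be told from those of the olfactory receptor probe sets. A p above the threshold does not show that a gene was the same in both genotypes, since the median SE of a log2 difference over all tested probe sets was 0.69.

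**Figure D1:**
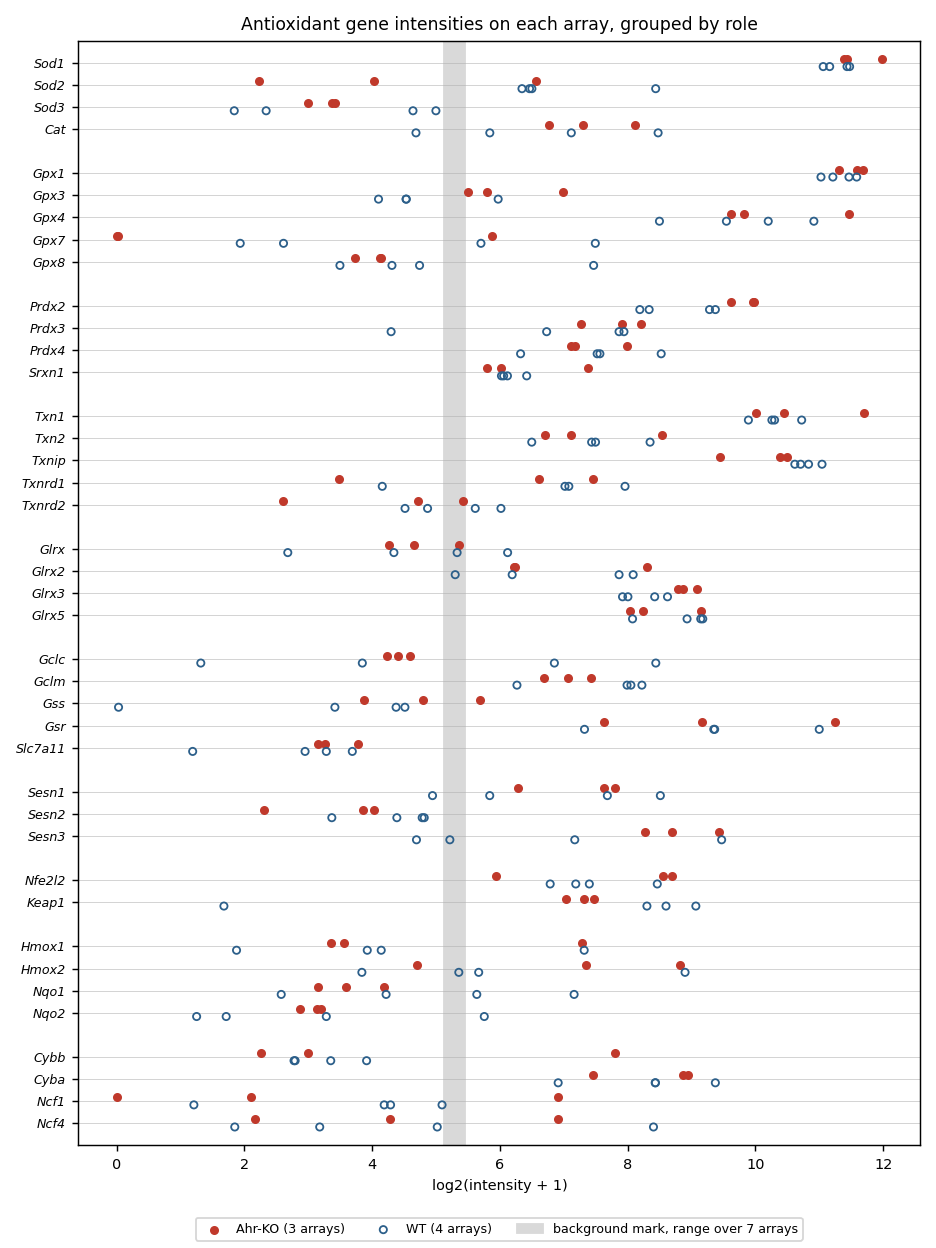
Values of log2(intensity + 1) for the 40 measured genes, grouped by role from top to bottom, with 3 filled points for Ahr-KO arrays above 4 open points for WT arrays in each row. The grey band spans the background mark on the 7 arrays. Sod1 and Gpx1 form tight clusters far to the right of the band, while Gpx7, Hmox1, Ncf1 and Ncf4 spread across it.

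The dismutases and catalase did not move together. Sod1 encodes the copper-zinc superoxide dismutase of the cytosol. It stood at 4046, 2770.2 and 2665 in Ahr-KO cells, against 2763, 2133, 2289 and 2842 in WT. The groups overlapped, and only Ahr-KO replicate 1 lay above every WT array. The difference was 0.32 ± 0.42 (SE; limma adjusted p = 0.965), with a 95% confidence interval from -0.66 to 1.29.

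Sod2, the manganese dismutase of mitochondria, stood at 3.69, 94.0 and 15.4 in Ahr-KO cells, against 346, 87.2, 80.25 and 89.5 in WT. Ahr-KO replicates 1 and 3 were below every WT value and below the background mark, while Ahr-KO replicate 2 lay inside the WT range. The difference was -2.66 ± 1.04 (SE; limma unadjusted p = 0.0342 and adjusted p = 0.963), and the interval from -5.06 to -0.26 was the only 1 of the 40 that did not include 0. An exact two-sided permutation test of the mean log2 values gave p = 0.114. The difference was -1.63 without Ahr-KO replicate 1 and -1.77 with a pseudocount of 16. Without Ahr-KO replicate 2 it was -3.80 ± 0.86 (SE; limma adjusted p = 0.717), and the Sod2 values did not overlap, as for 14.5% of all genes in that setting. Only that array lay inside the WT range of Sod2, so its removal is no test.

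Cat encodes catalase, which splits hydrogen peroxide in peroxisomes. It stood at 157, 108 and 277 in Ahr-KO and ranged over the WT arrays at 355, 56.3, 24.7 and 138, which enclosed all the Ahr-KO values. The difference was 0.87 ± 0.90 (SE; limma adjusted p = 0.963). Sod3, the extracellular dismutase, was below the mark on every array, between 7.01 and 9.67 in Ahr-KO and between 2.58 and 30.9 in WT.

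Glutathione peroxidases use glutathione to reduce peroxides, and GPX4 acts on lipid peroxides in membranes. Gpx1, the cytosolic enzyme, was among the steadiest of the genes. It stood at 2523, 3083 and 3272 in Ahr-KO cells, against 2823, 2083, 2369.9 and 3069 in WT. The ranges overlapped and the difference was 0.20 ± 0.41 (SE; limma adjusted p = 0.975), with an interval from -0.76 to 1.16.

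Gpx4 varied more between arrays, at 2814, 782 and 901 in Ahr-KO cells and 746, 1928, 360.2 and 1175 in WT. Its difference was 0.51 ± 0.73 (SE). Gpx3, a secreted peroxidase, stood at 54.5, 44.4 and 126 in Ahr-KO cells, against 22.2, 22.1, 16.1 and 61.8 in WT. All Ahr-KO arrays exceeded the background mark, and so did WT replicate 4, the only WT array that reached the Ahr-KO range. The difference was 1.31 ± 0.63 (SE; limma adjusted p = 0.963). Without WT replicate 4 the Gpx3 values no longer overlapped, as for 10.1% of all genes in that setting. This follows from the choice of array and is no test. The endoplasmic reticulum peroxidase genes Gpx7 and Gpx8 exceeded the mark on 3 arrays and 1 array. Gpx7 was listed at 0 on Ahr-KO replicate 1 and at 0.01 on replicate 3, against 57.9 on replicate 2, while WT values ran from 2.82 to 179.

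Peroxiredoxins reduce peroxides through a reactive cysteine, and sulfiredoxin, encoded by Srxn1, restores those that have been over-oxidised. Prdx2, a cytosolic peroxiredoxin abundant in red blood cells, separated the genotypes. It stood at 993, 1005 and 783 in Ahr-KO cells, against 661, 291, 322 and 621 in WT. Every Ahr-KO value lay above every WT value. The means were 927 ± 125 in Ahr-KO cells and 474 ± 194 in WT (SD, n = 3 and n = 4). On the log2 scale they differed by 1.05 ± 0.49 (SE; limma adjusted p = 0.963), with an interval from -0.09 to 2.20. An exact two-sided permutation test gave p = 0.0857, where 0.0286 is the smallest p that the 35 splits allow. Prdx2 was described because its genotypes did not overlap, which makes the true split the most extreme in its direction. A p near the smallest follows from that choice and is no further evidence.

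Prdx2 was lowest on WT replicates 2 and 3. The mean log2 level of 5 measured erythroid markers was 5.15, 5.86 and 4.70 in Ahr-KO cells and 5.09, 3.65, 4.89 and 5.17 in WT cells, lowest on WT replicate 2. Of those markers, Slc4a1 exceeded the background mark on all 7 arrays and Klf1 on 1. The part of erythroid transcripts in the Prdx2 difference was not tested, and fewer cells of a type and less RNA per cell cannot be told apart in such samples. Without WT replicate 2, the Prdx2 difference was 0.85.

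The other measured peroxiredoxins overlapped between genotypes. Prdx3, the mitochondrial form, differed by 1.08 ± 0.91 (SE), and its WT values ranged from 18.6 on replicate 2 to 245 on replicate 4, enclosing 2 of the 3 Ahr-KO values. Prdx4, of the endoplasmic reticulum, differed by -0.06 ± 0.61 (SE). Srxn1 stood at 54.5, 165.5 and 63.6 in Ahr-KO cells, against 84.5, 65.6, 68.4 and 64.0 in WT. The 4 WT values of Srxn1 lay within a 1.32-fold range, and Ahr-KO replicate 2 alone stood well above them.

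Thioredoxin, encoded by Txn1 in the cytosol and Txn2 in mitochondria, reduces protein disulphides and is itself reduced by the reductases Txnrd1 and Txnrd2. Txnip encodes a protein that binds thioredoxin and inhibits it, and that restrains glucose uptake. Txnip was the gene with lower Ahr-KO values that did not overlap WT. It stood at 1441, 1332 and 697 in Ahr-KO cells, against 1568, 1669.9, 2107 and 1820.2 in WT. Ahr-KO replicate 3 was far below the rest, and the gap between the highest Ahr-KO and the lowest WT array was small.

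The Txnip means were 1157 ± 402 in Ahr-KO cells and 1791 ± 234 in WT (SD, n = 3 and n = 4), a log2 difference of -0.69 ± 0.46 (SE; limma adjusted p = 0.963) with an interval from -1.75 to 0.37. An exact two-sided permutation test gave p = 0.0286, the smallest possible here. For a gene picked for its lack of overlap, as Txnip was, this adds nothing to that lack of overlap. Without Ahr-KO replicate 3 the difference was -0.36. After each array was centred on its median the Txnip values overlapped, while after quantile normalization they remained separate.

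The thioredoxins themselves showed no separation. Txn1 stood at 1028, 1397 and 3308 in Ahr-KO cells, against 1222.5, 947, 1689 and 1259 in WT, where Ahr-KO replicate 3 was the only Ahr-KO array outside the WT range. Its difference was 0.42 ± 0.54 (SE). Txn2 differed by less than 0.01, with a standard error of 0.65 and an interval from -1.49 to 1.50. Txnrd1 lay below the background mark on Ahr-KO replicate 2 (10.2) and WT replicate 2 (16.8), and the remaining arrays gave 96.4 and 174 in Ahr-KO cells, against 129, 134 and 248 in WT. Txnrd2 exceeded the mark on 3 arrays, with a difference of -1.01 ± 0.76 (SE).

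Glutaredoxins use glutathione to reduce disulphides, and Glrx3 and Glrx5 also handle iron-sulphur clusters. Glrx3 stood at 467, 539 and 442 in Ahr-KO cells, against 393, 342, 256 and 241 in WT. Every Ahr-KO value was above every WT value, although Ahr-KO replicate 3 and WT replicate 1 lay close together. The means were 483 ± 50.8 in Ahr-KO cells and 308 ± 72.2 in WT (SD, n = 3 and n = 4). On the log2 scale they differed by 0.67 ± 0.43 (SE; limma adjusted p = 0.963), with an interval from -0.31 to 1.65. An exact two-sided permutation test gave p = 0.0571, again for a gene picked for its lack of overlap.

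Glrx5, the mitochondrial protein, had overlapping ranges, at 263, 302 and 564 in Ahr-KO cells and 577, 269, 486 and 564 in WT (difference -0.35 ± 0.51, SE). A second Glrx5 probe set differed by -0.54 ± 1.44 (SE) and held 1 low array, WT replicate 3 at 11.7, which the main probe set did not share. Glrx and Glrx2, the cytosolic and mitochondrial dithiol forms, differed by 0.14 ± 0.83 and 0.05 ± 0.87 (SE).

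**Figure D2:**
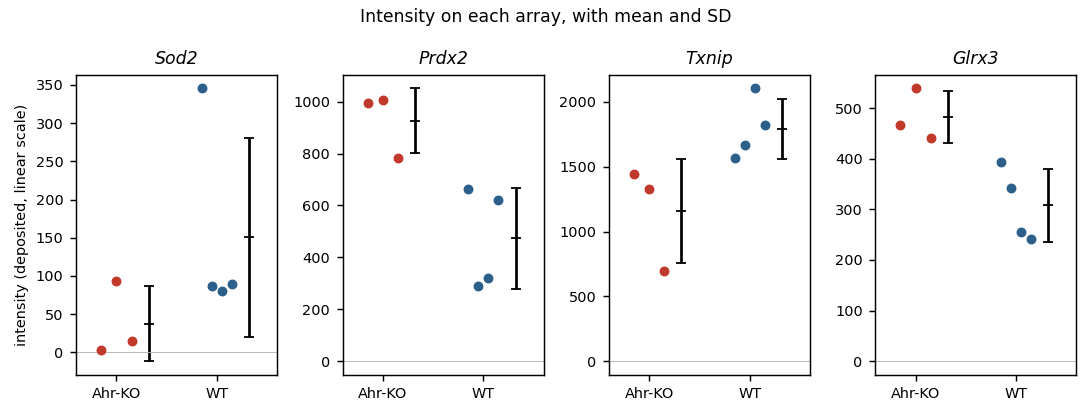
Intensity on each array, on a linear axis, for Sod2, Prdx2, Txnip and Glrx3, with Ahr-KO left of WT and the mean with SD beside the points (n = 3 and n = 4). Prdx2 and Glrx3 lie higher and Txnip lower in Ahr-KO with no overlap, while for Sod2 Ahr-KO replicate 2 lies within the WT values.

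The promoters of Txnip, Glrx3 and Glrx5 are shown because they alone, of the 38 listed genes with an entry, held the core of the AhR response element, TNGCGTG, on either strand. Sod3, Gclc, Gsr, Hmox1, Ncf4 and Prdx6 had no entry. The windows searched ran from 250 bases before to 50 bases after each gene start in RefSeq GRCm38.p6. Capitals mark the match, and each line is read along the strand of the gene; in Glrx5 the motif lies on the opposite strand.
Txnip, chr3:96557892-96557922, plus strand: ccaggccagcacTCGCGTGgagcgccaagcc
Glrx3, chr7:137437598-137437622, plus strand: tgcgcagcctccTCGCGTGtccgtc
Glrx5, chr12:105032462-105032492, plus strand: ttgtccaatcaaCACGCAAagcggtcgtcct
The match began 53 bases before the gene start in Txnip, 37 bases after it in Glrx3 and 144 bases before it in Glrx5. A match was present for 7.89% of the 38 genes, beside 5.84% of all 27025 genes with a window. The 3 genes with a match differed by -0.69, 0.67 and -0.35, in both directions, and the other 32 measured genes with a window had a median difference of 0.22. A match of letters is a description of the sequence and not a binding site, and alternative starts outside these windows were not searched.

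Glutathione is made by glutamate-cysteine ligase, with the catalytic subunit Gclc and the modifier Gclm, followed by glutathione synthetase, Gss. Gsr encodes the reductase that recycles it, and Slc7a11 the transporter that brings in cystine. Gclm stood at 171, 102 and 134 in Ahr-KO cells, against 253, 264, 75.9 and 297.5 in WT. WT replicate 3 alone lay below the Ahr-KO values, and without it the groups did not overlap, as for 9.27% of all genes in that setting. For Gclm that array was the one that made the groups overlap, so its removal is no test. The difference over all arrays was -0.57 ± 0.60 (SE; limma adjusted p = 0.963).

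Gsr varied more within each genotype than between them. It stood at 575, 2436 and 197 in Ahr-KO cells, against 2044, 657, 159 and 650.2 in WT, a 12.3-fold and a 12.8-fold range. Its difference of 0.09 ± 1.07 (SE) turned to -0.86 without Ahr-KO replicate 2 and to -0.55 without WT replicate 3. Gclc exceeded the mark on 2 arrays, WT replicate 3 (114) and WT replicate 4 (346), and stood between 17.7 and 23.2 in Ahr-KO. Gss exceeded it on 1 array, Ahr-KO replicate 2, at 50.6.

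Slc7a11 gave 2 probe sets, both below the background mark on every array. The main probe set gave 12.7, 8.59 and 7.87 in Ahr-KO cells and between 1.28 and 11.9 in WT. The second was listed at 0 on Ahr-KO replicate 1 and stood at 0.2 and 0.54 on the other Ahr-KO arrays, against 4.33, 5.45, 15.1 and 16.99 in WT. It differed by -3.03 ± 0.59 (SE; limma unadjusted p = 0.000924 and adjusted p = 0.961) with no overlap, whereas the main probe set differed by 0.62 ± 0.66 (SE). The 2 probe sets disagree in direction, and neither shows Slc7a11 above the mark.

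Sestrins are stress-induced proteins that restrain mTORC1 and help maintain peroxiredoxin function. Sesn3, a target of FoxO factors, stood at 687, 309 and 413 in Ahr-KO cells, against 143, 24.9, 708 and 36.2 in WT. WT replicate 3 matched the Ahr-KO arrays, and the other WT arrays lay below them. The difference was 2.16 ± 1.12 (SE; limma adjusted p = 0.963), with an interval from -0.42 to 4.75. Without WT replicate 3 it was 3.11, and the values did not overlap, as for 9.27% of all genes in that setting. Since WT replicate 3 alone caused the overlap of Sesn3, leaving it out is no test. Sesn1, a p53 target, differed by 0.49 ± 0.92 (SE), and Sesn2 was below the mark throughout, with a difference of -0.94 ± 0.62 (SE).

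Nfe2l2 stood at 413, 375 and 60.1 in Ahr-KO cells, against 168, 109, 145 and 352 in WT. Ahr-KO replicate 3 was the lowest array of all and the other Ahr-KO arrays were the highest, so the groups overlapped completely. The difference was 0.27 ± 0.79 (SE; limma adjusted p = 0.983), and it was -0.22 without Ahr-KO replicate 1 and -0.14 without Ahr-KO replicate 2.

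Keap1 had 1 aberrant value. On its main probe set the intensities were 158, 129.5 and 177 in Ahr-KO cells, against 2.2, 314, 387 and 535 in WT. WT replicate 1 was far below every other array, while the other WT arrays lay above all Ahr-KO arrays. The second Keap1 probe set exceeded the mark on all 7 arrays and did not share that low value, at 53.1, 36.3 and 57.3 in Ahr-KO cells and 72.8, 45.3, 56.3 and 120.1 in WT. Its difference was -0.51 ± 0.50 (SE), beside 0.36 ± 1.70 (SE) for the main probe set. Without WT replicate 1 the main probe set differed by -1.38 ± 0.49 (SE; limma unadjusted p = 0.0258 and adjusted p = 0.974) with no overlap, so both probe sets then gave lower values in Ahr-KO. In that setting 9.68% of all genes did not overlap and 3.71% were under 0.05 unadjusted. Those shares leave out the same array for every gene. For Keap1 the array was picked because its value was low, so its removal is no test.

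Nqo1, which reduces quinones, exceeded the mark on WT replicates 3 and 4 and on no Ahr-KO array. It stood at 7.89, 17.3 and 11.1 in Ahr-KO cells, against 17.6, 4.96, 48.8 and 142 in WT. The 2 highest values were both WT, the lowest was WT as well, and the difference was -1.25 ± 1.02 (SE; limma adjusted p = 0.963). Without WT replicate 2, the source of that lowest value, Nqo1 differed by -2.03 ± 0.81 (SE; limma unadjusted p = 0.0416 and adjusted p = 0.940). The groups then did not overlap, by 17.3 on Ahr-KO replicate 2 against 17.6 on WT replicate 1. In that setting 10.5% of all genes did not overlap and 4.51% were under 0.05 unadjusted. The array was picked after its value was seen, so its removal is no test. Without WT replicate 4 Nqo1 differed by -0.50. Nqo2, a related enzyme, exceeded the mark on 1 array, WT replicate 4 (53.0).

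Heme oxygenases break down heme. Hmox1, the inducible form, stood at 155 on Ahr-KO replicate 2 and at 10.8 and 9.24 on the other Ahr-KO arrays. In WT it stood at 159 on replicate 4, against 14.2, 16.6 and 2.67 on the rest, so each genotype held 1 high array. Hmox2, the constitutive form, stood at 449, 25.0 and 162 in Ahr-KO cells, against 476, 13.3, 49.8 and 39.9 in WT. Its difference was 1.01 ± 1.34 (SE; limma adjusted p = 0.965) and ran from 0.08 to 2.14 when single arrays were left out.

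Antioxidant response elements were searched in the same 38 promoters as TGACNNNGC on either strand, and 3 of the matches are shown because NRF2 itself and 2 enzymes of its response, sulfiredoxin and thioredoxin reductase, carry them. Capitals mark the match, and each line follows the strand of the gene.
Srxn1, chr2:152105540-152105572, plus strand: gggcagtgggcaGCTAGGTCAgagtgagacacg
Txnrd1, chr10:82859102-82859134, plus strand: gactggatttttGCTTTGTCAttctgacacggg
Nfe2l2, chr2:75704883-75704913, minus strand: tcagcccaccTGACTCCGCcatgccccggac
The motif lies on the opposite strand in Srxn1 and Txnrd1, and no gene held both this motif and the AhR element. A match was found for 8 of the 38 genes, or 21.1%, beside 14.0% of all genes with a window. Of the 8, 6 were measured (Sod1, Srxn1, Txnrd1, Gclm, Sesn2 and Nfe2l2), with 3 higher and 3 lower in Ahr-KO and a median difference of -0.16, beside 0.20 for the 29 measured genes with a window and no match. A match of letters is not a binding site here either. Elements outside these windows were not searched, so a gene without a match may still hold one.

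**Figure D3:**
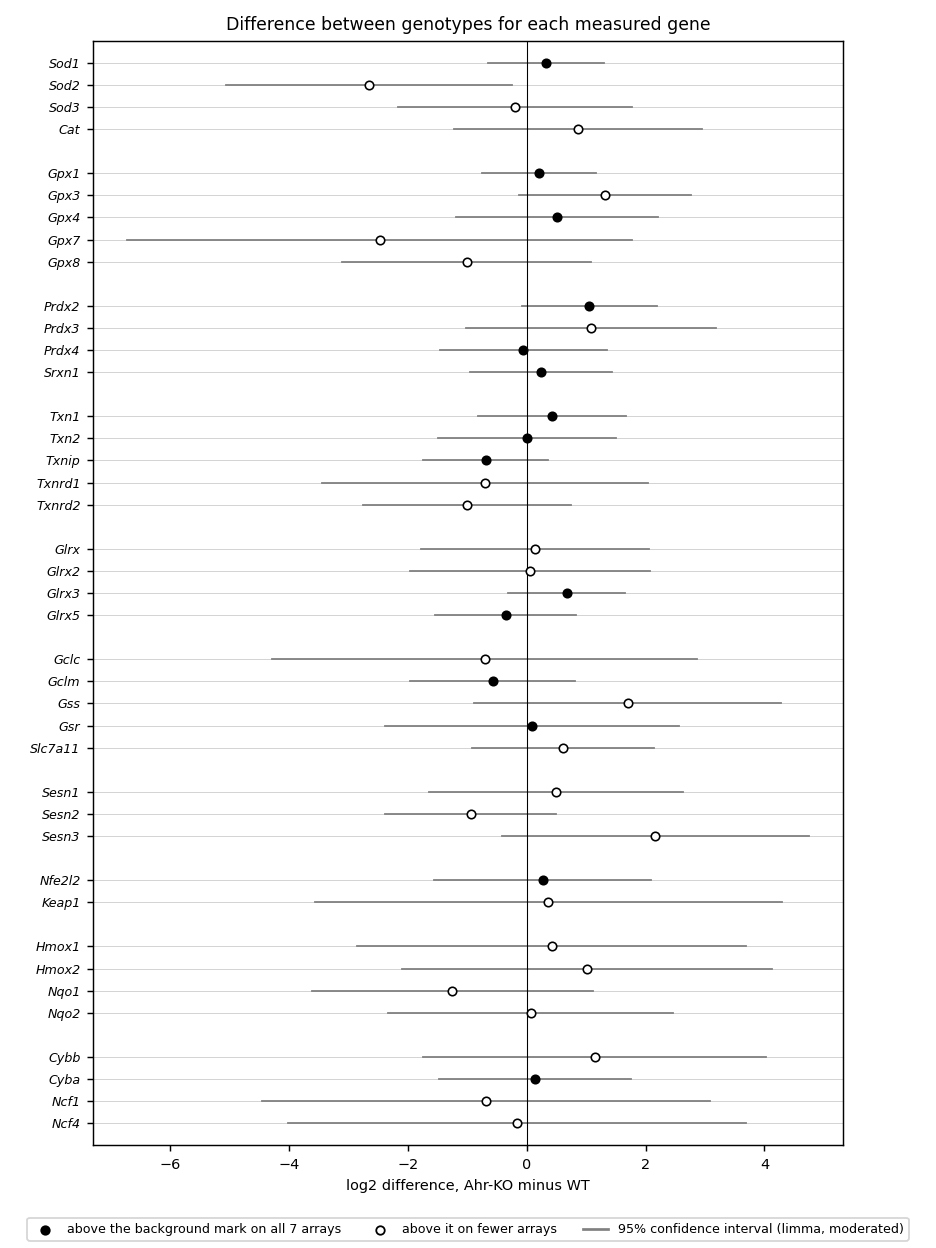
Log2 difference, Ahr-KO minus WT, for each measured gene with its 95% confidence interval from limma. Filled points are genes above the background mark on all 7 arrays. The interval of Sod2 alone stays clear of 0, and the filled points have a median SE of 0.54, against 1.04 for the open ones, with Gsr a wide exception at 1.07.

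The phagocyte NADPH oxidase makes superoxide rather than removing it. Cybb and Cyba encode its membrane subunits, and Ncf1 and Ncf4 cytosolic subunits. Cyba, expressed widely in blood cells, exceeded the mark on all 7 arrays, at 493, 466 and 175 in Ahr-KO cells and 119, 661, 344 and 345 in WT. The difference was 0.14 ± 0.70 (SE; limma adjusted p = 0.991).

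The other subunits appeared on single arrays. Cybb stood at 222 on Ahr-KO replicate 2 and at 3.81 and 6.98 on the other Ahr-KO arrays, against 5.85 to 14.1 in WT. Ncf1 stood at 119 on the same array, against 0 and 3.29 on the other Ahr-KO arrays and 1.31 to 33.1 in WT. Ncf4 stood at 119 on Ahr-KO replicate 2, against 3.49 and 18.5 on the others, and at 337 on WT replicate 2, against 2.6, 8.05 and 31.4 on the other WT arrays. These 3 subunits were therefore above the mark on Ahr-KO replicate 2 in common, and Ncf4 on WT replicate 2 as well.

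The 14 granulocyte and monocyte markers had mean log2 levels of 7.89, 8.73 and 7.25 in Ahr-KO cells, against 4.49, 9.04, 7.67 and 6.74 in WT cells. The highest level in each genotype was on the array where Ncf4 was high, Ahr-KO replicate 2 and WT replicate 2. The mean log2 value was higher in Ahr-KO for all 14 markers, but the mean intensity for 9 of them. Without WT replicate 1 the mean log2 value was higher for 8 of the 14, with a median difference of 0.02 in place of 1.02, and without Ahr-KO replicate 2 for 11, with a median of 0.39. Fcgr3, the only 1 at an unadjusted p under 0.05, differed by 1.80 ± 0.58 (SE; limma adjusted p = 0.963) with no overlap. Over all genes 4.02% were under 0.05 unadjusted and 5.78% did not overlap. On WT replicate 1, where the marker mean was lowest, Cyba, Ncf1 and Ncf4 were each at or near their lowest. Ahr-KO replicate 1 differed from this, with a marker mean of 7.89, above those of WT replicates 3 and 4. There Cybb (3.81) and Ncf1 (0) were at their lowest and Ncf4 (3.49) near it, while Cyba stood at 493. Csf1r, a macrophage receptor gene chosen for mention after its values were seen, stood at 296 on Ahr-KO replicate 2 and between 4.74 and 17.2 on the other 6 arrays, as Cybb did. Over 9 macrophage and dendritic markers the mean log2 level was 4.04, 5.81 and 5.09 in Ahr-KO cells, against 5.65, 5.15, 5.73 and 6.18 in WT cells, with 1 of the 9, Csf1r, higher in Ahr-KO. H2-Eb1, a class II antigen presentation gene, stood at 16.4, 43.4 and 132 in Ahr-KO cells, against 170.1, 441, 228 and 159.6 in WT cells, and differed by -2.30 ± 0.75 (SE; limma unadjusted p = 0.0163 and adjusted p = 0.963) with no overlap. The macrophage marker Adgre1 did not overlap either (-1.26 ± 0.57, SE), although it was below the background mark on every array. Of these 9 markers 1 was under 0.05 unadjusted and 2 did not overlap, beside the same 4.02% and 5.78% of all genes. The part of granulocytes or macrophages in the oxidase values was not tested.

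**Figure D4:**
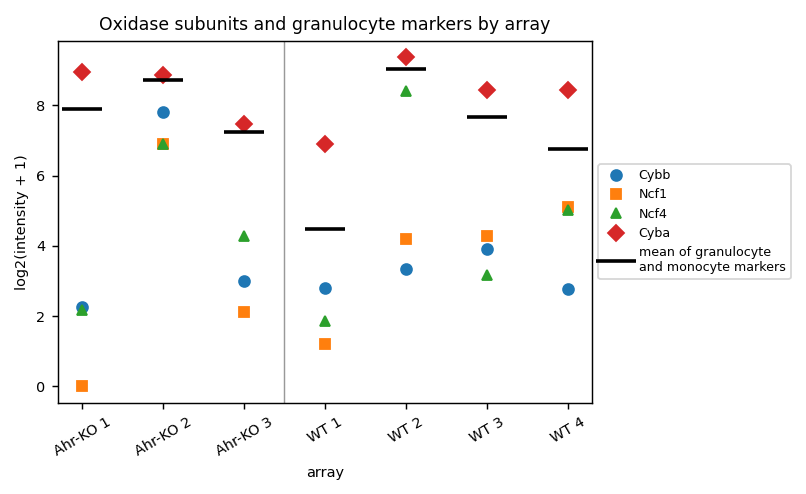
Log2(intensity + 1) of the oxidase subunits Cybb, Ncf1, Ncf4 and Cyba on each array, with the mean of 14 granulocyte and monocyte markers as a black bar. Cybb, Ncf1 and Ncf4 are high together on Ahr-KO replicate 2, and Ncf4 is high again on WT replicate 2, where the marker mean reaches 9.04. On Ahr-KO replicate 1 the same subunits are low, while the marker mean is 7.89.

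Across all roles the arrays differed within a genotype. WT replicate 2 held the lowest of the 7 values for 16 of the 40 genes, and WT replicate 4 the highest for 11. The median deviation from each gene's own mean was -0.59 on WT replicate 2 and 0.47 on WT replicate 4. Over all 22180 genes these medians were -0.11 and 0.13, with the same signs. On the Ahr-KO arrays the deviations of the 40 genes were -0.14, 0.17 and -0.01. WT replicates 2 and 4 also had the smallest and the largest share of probe sets above the background mark.

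**Figure D5:**
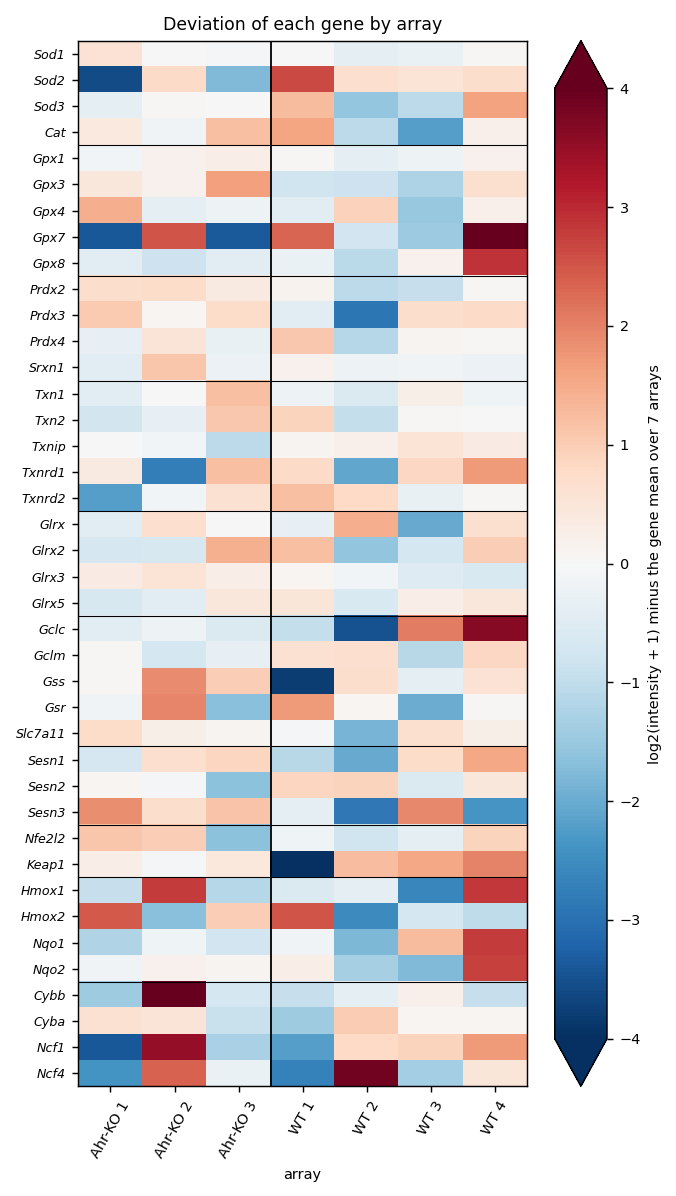
Log2(intensity + 1) minus each gene's mean over the 7 arrays, with genes in rows grouped by role and Ahr-KO columns left of WT columns. Red is above and blue below the gene's mean. Isolated strong cells (Cybb on Ahr-KO replicate 2, Ncf4 on WT replicate 2, Gclc on WT replicate 4, Keap1 on WT replicate 1) stand out more than any whole role.

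Related genes outside the 40 also gave no call at the adjusted threshold. Of 43 further antioxidant and NADPH genes, 39 were measured, with 21 higher and 18 lower in Ahr-KO, a median difference of 0.02, and 0 past the adjusted or the unadjusted limma threshold. Selenow, a small selenoprotein gene, stood at 2350.3, 2682 and 3585 in Ahr-KO cells, against 2654, 1269, 1846 and 2832 in WT, with a difference of 0.46 ± 0.48 (SE). Selenop, the gene of a secreted selenium carrier, was the only 1 of the 39 whose groups did not overlap, at 891, 1309 and 1175 in Ahr-KO cells, against 365, 716, 734 and 532 in WT cells (difference 0.97 ± 0.46, SE). That count of 1 of 39 stands beside 5.78% of all genes that did not overlap. In 11 measured NRF2 pathway regulators 7 were higher, beside 48.4% of all genes. The count was 5 without Ahr-KO replicate 2 or without WT replicate 2, and 7 to 9 with any other single array left out. Cul3, the ubiquitin ligase scaffold that works with KEAP1, differed by -0.09 ± 0.64 (SE). In 10 further oxidase genes 7 were higher, and 6 or 7 with single arrays left out. Rac2, the GTPase of the phagocyte oxidase, differed by -0.15 ± 0.54 (SE). Duox1, an oxidase gene below the mark on every array, did not overlap and was lower in Ahr-KO (-0.97 ± 0.46, SE). It was the only 1 of the 10 without overlap, and 3.15% of all genes were lower without overlap. In these lists too the count past the adjusted or the unadjusted limma threshold was 0.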

How the data were processed

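Total RNA of sorted stem cells was amplified to biotinylated cDNA and hybridised to 7 arrays, per the labels' protocols. The authors deposited 1 linear intensity per probe set and array, with Affymetrix Expression Console as the software, per the submitters' processing notes. For probe summarization, background correction, normalization and genome build, the steps taken were not given in the sources used here. Array medians of the deposited values differed, which does not settle whether the arrays had been normalized before probe sets were summarized. The number of arrays limits the precision.

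Of 41155 rows, the 25335 with an annotated gene were tested, 23521 of them with 1 gene symbol. Symbols were updated through Entrez IDs in the RefSeq table. Cross-hybridisation with related genes was not checked. Intensities were transformed as log2(intensity + 1), which understates changes of dim genes. Genotype was fitted with limma 3.58.1 in R 4.3.3 (lmFit, eBayes), two-sided, with Benjamini-Hochberg adjustment over all tested rows and a threshold of 0.05. Standard errors and intervals are moderated. Exact permutation tests used the absolute difference of mean log2 values over 35 splits.

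The genes, the lists and the background mark were chosen with earlier results of these data known. Described in full were genes whose genotypes did not overlap, genes at unadjusted p under 0.05 and the brightest gene of each role, and further genes were described by their values. In the other lists the same unadjusted threshold and the brightest gene decided, and some further genes were added after their values were seen (Csf1r, Adgre1, Selenop, Duox1 and the other stem cell and granulocyte markers). Alternatives were quantile normalization, median centring, single arrays left out, a block for the replicate number, a pseudocount of 16, a filter on dim probe sets, a trended and robust prior, all rows, array weights and the mean over a gene's probe sets.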

Additional observations from a re-analysis of the deposited data

Results flagged for a closer look

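In 3 of the 40 genes, 1 of the 4 WT arrays stood far from the others, with a gap on the log2 scale that, as a share of the whole WT range, exceeded Dixon's 95% critical value. Chance flags about 5% of such groups. For Sod2 the gap was 0.926 of the range and belonged to WT replicate 1, at 346 beside 80.25 to 89.5 on the other WT arrays. For Keap1 it was 0.896, also on WT replicate 1, at 2.2 beside 314 to 535, and the second Keap1 probe set gave 72.8 on that array. For Gclm it was 0.881, on WT replicate 3, at 75.9 beside 253 to 297.5. The Ahr-KO group, with 3 arrays, was not tested in this way.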

How the results depend on the processing

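No antioxidant gene, and no probe set, passed the adjusted threshold in any of the 16 alternative settings. The count of the 40 genes at unadjusted p under 0.05 was 1 with all arrays, beside 4.02% of all genes. It was 2 after quantile normalization (4.03% of all genes) and 3 with a pseudocount of 16 (3.98%). With a trended and robust prior it was 3 (3.74%), and with array weights 0 (4.14%). With single arrays left out it lay between 0 and 2, beside 3.63 to 5.16% of all genes. Sod2 was among those genes when the array left out was Ahr-KO 2, WT 2 or WT 3, and not for the other 4 arrays. The count of genes without overlap, 3 with all arrays, ran from 4 to 6 with single arrays left out, where fewer values have to be separate and 9.27 to 14.5% of all genes did not overlap. The count of higher genes ran from 19 to 26 of 40, and was 20 of the 28 left by the filter on dim probe sets; it was added as a result after the data were seen. The median difference ran from -0.11 to 0.38. The differences of Gsr (-0.86 to 0.95), Nfe2l2 (-0.22 to 1.17), Cyba (-0.32 to 0.62) and Keap1 (-1.38 to 1.08) changed sign when single arrays were left out, and that of Keap1 also with a pseudocount of 16 (-0.17) and as the mean over its probe sets (-0.074); the cause was not tested. Sod1, Sod2, Gpx1, Prdx2, Txnip, Glrx3, Glrx5, Sesn3 and Hmox2 kept their sign in all 16 settings, and Nqo1 in the 15 that tested it. Probe sets at unadjusted p under 0.05 numbered 1067, against 1781 over all rows and 572 after the dim filter, which change how many are tested.

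No sign of a pairing by replicate number was seen. Same-numbered arrays had correlations of deviations from -0.06 to 0.02, and 0 of 3 Ahr-KO arrays correlated best with the WT array of their number. Correlations so near 0 cannot exclude a pairing. With the replicate number as a block, which leaves WT replicate 4 without weight, 0 genes passed the adjusted threshold and the median difference was 0.38. Of the 40 genes, 1 was under 0.05 unadjusted (Gss, and no longer Sod2), beside 4.40% of all genes. In signal over background, 25 of the 40 genes did not exceed the mark on every array. The part of this in the lack of calls was not tested, and the 15 genes above it gave 0 calls too.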
